A study of Gallus gallus with 18 samples.

Results

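Oxidative phosphorylation is carried out by 5 complexes of the inner mitochondrial membrane. Complexes I and II pass electrons from NADH and succinate to ubiquinone, complex III passes them to cytochrome c, complex IV passes them to oxygen, and complex V, the ATP synthase, makes ATP from the resulting proton gradient. Most of the subunits are encoded in the nucleus, while a small set comes from mitochondrial DNA, so the complexes are built from the products of both genomes. The genes described here are the nuclear ones, taken by symbol: those whose names begin with NDUFA, NDUFB, NDUFC, NDUFS, NDUFV, UQCR, COX4 to COX8 or ATP5, and the SDHA to SDHD genes of complex II. CYC1, the cytochrome c1 gene of complex III, was also looked for, and no gene of the deposited table carried that symbol. The alpha subunit of the ATP synthase was left out. The rule found 80 genes of the 23741 in the deposited table. Of these, 34 belong to complex I, 4 to complex II, 8 to complex III, 10 to complex IV and 16 carry an ATP5 symbol, by which complex V is counted below. The other 8 are NDUFAF genes, factors that help to assemble complex I and are not subunits of it, which the NDUFA prefix also takes in. NDUFA4 was counted with complex IV, of which it is a subunit in mammals, and ATP5SL, counted here by its symbol, corresponds to an assembly factor of complex I in human. Mitochondrially encoded subunits were not analysed here.

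The birds were Arbor Acres broiler breeder roosters whose feed held 0.25 mg (FCON) or 5 mg (FE) folic acid per kg from the first day of life. Folic acid is a vitamin that supplies one-carbon groups to nucleotide synthesis and methylation. RNA was sequenced from rooster liver at 35 weeks, from rooster sperm, and from the liver of day-old offspring, with 3 libraries for each tissue and diet, 18 in all. Sperm was labelled 35 weeks too, except for FE replicate 3, which carries 36. Each offspring library pooled 4 chicks, and the mothers all received the same feed. The study thus asks whether the fathers' folic acid is reflected in their own liver and sperm and in the liver of their chicks.

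The libraries held 16.98 M to 43.1 M estimated counts (M for mega), and FE rooster livers were shallower (20.3 ± 3.02 M, SD, n = 3) than FCON rooster livers (40.1 ± 3.60 M). The rooster groups differed in further features besides diet and depth. Nuclear ribosomal RNA took 6.43 ± 3.02% of the counts in rooster FCON and 45.9 ± 13.9% in rooster FE. Genes of chromosome W, which male birds lack, held 0 to 2.07 CPM (counts scaled to equal library totals) in rooster FE but 1015 to 1117 CPM in all 3 libraries labelled rooster FCON. Of 12 hepatocyte markers, 10 were called lower in FE (edgeR, adjusted p below 0.05) and none higher, where 21.1% of all genes tested were lower and 20.4% higher. Their summed level was 19820 to 29500 CPM in FE and 123200 to 130900 CPM in FCON, and 26710 to 40530 against 89950 to 90440 after the scaling of the test. Markers of macrophages (5 of 6), T and NK cells (4 of 4) and B and plasma cells (3 of 3) were higher in FE, and the 4 erythroid markers tested were not called. Of 4 cholangiocyte and 4 endothelial markers tested, 1 each was higher and 1 each lower. The cholangiocyte list summed to 177 to 199 CPM in FCON and 33.4 to 56.4 CPM in FE, and the endothelial list to 150.3 to 159 and 55.5 to 125 CPM. After the scaling of the test the cholangiocyte sums stayed lower in FE (59.7 to 68.2 against 128 to 139), while the endothelial sums were higher in FE (114 to 138 against 109.7 to 112). Because the W counts are in every library labelled rooster FCON, no result for rooster liver can be given without those libraries, and diet, W counts, cell markers and ribosomal RNA cannot be told apart in it. In bulk tissue, fewer cells of a type and less RNA per cell cannot be told apart either. Among the offspring pools, both numbered 2 had high W counts (963 CPM in FCON and 1299 CPM in FE), and 1 gene took 8.12 to 45.3% of the counts in the sperm libraries.

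Levels were compared between genes in FPKM, which divides by transcript length, rescaled to each library's total without ribosomal RNA genes. In rooster FCON liver the median over the 80 genes was 212 FPKM, and it was 156 in rooster FE, 301 in offspring FCON, 302 in offspring FE, 63.9 in sperm FCON and 67.3 in sperm FE. In each liver group complexes IV and V had the highest medians and the assembly factors the lowest. Rooster FCON, for example, had medians of 448 FPKM for complex IV, 446 for complex V, 222 for complex III, 159 for complex I, 106 for complex II and 13.9 for the assembly factors. In sperm, complex IV led with medians of 169 FPKM in FCON and 162 in FE, followed by complex V at 101 and 119. ATP5F1B, the catalytic beta subunit of the ATP synthase, was the highest gene in rooster liver, with 1169, 1162 and 1167 FPKM in the FCON libraries and 957, 822 and 873 FPKM in the FE libraries. The next genes in the order were close to each other in the chicks. NDUFA13, a complex I subunit, led in offspring FCON with 1838, 1714 and 1199 FPKM, a spread that overlaps ATP5F1B at 1279, 1288 and 1920. ATP5E, the small epsilon subunit of the ATP synthase, led in offspring FE with 1319, 1657 and 2570 FPKM. COX6C, a complex IV subunit, was highest in both sperm groups, at 134, 542 and 716 FPKM in FCON and 228, 287 and 651 FPKM in FE. At the other end stood NDUFAF4 in rooster FCON (2.17 ± 0.169 FPKM) and NDUFAF6 in the other 5 groups (0.383 to 3.17 FPKM on average).

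**Figure D1:**
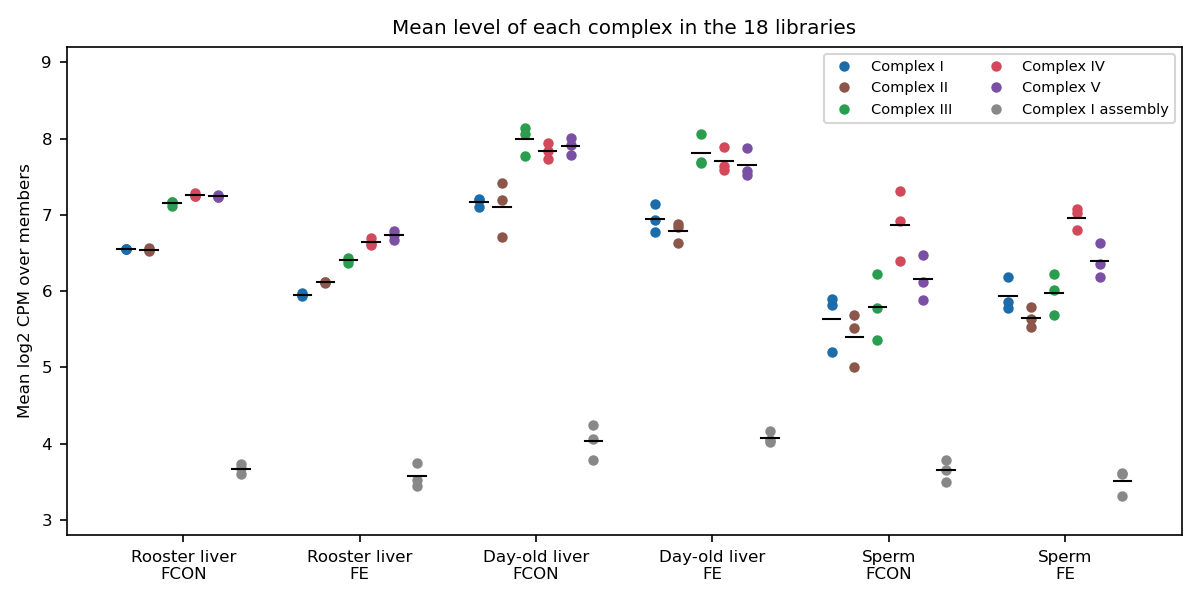
Mean log2 CPM over the members of each complex (y axis) in the 18 libraries, 3 points per group and complex, with a black bar at the mean of the 3. The means of the offspring livers lie above those of the rooster livers on the same diet for each of the 5 complexes, complex IV is highest in sperm, and the assembly factors (grey) lie below the 5 complexes in every group.

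The 80 genes together took 1.86 to 1.88% of the non-ribosomal counts in rooster FCON liver, 1.32 to 1.38% in rooster FE, 2.82 to 3.20% in offspring FCON, 2.73 to 2.87% in offspring FE, 0.222 to 0.709% in sperm FCON and 0.372 to 0.750% in sperm FE. The rooster groups do not overlap in this share, while the offspring groups and the sperm groups do. Replicates also differed in how close they lay. The median coefficient of variation over the genes was 2.86% in rooster FCON, 9.16% in rooster FE, 19.0% and 17.9% in offspring FCON and FE, and 30.6% and 20.7% in sperm FCON and FE. Differences of a given size were therefore easiest to call between rooster livers.

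In rooster liver most nuclear genes of the 5 complexes were lower in the FE libraries. Of the 80 genes 47 were called lower and 6 higher (edgeR's quasi-likelihood test, Benjamini-Hochberg adjusted p below 0.05 over all 10291 genes tested), where 21.1% of all genes tested were called lower, 20.4% higher and 41.5% in either direction. The median log2 change was −0.42 over the 80 genes and −0.03 over all genes tested. FE and FCON did not overlap in 61 of the 80 genes, against 57.8% of all genes tested. Called lower were 21 of 34 genes of complex I, 2 of 4 of complex II, 7 of 8 of complex III, 6 of 10 of complex IV, 10 of 16 of complex V and 1 of 8 assembly factors. Among genes of under 600 bases, as computed from the ratio of counts to FPKM, the 22 members had a median of −0.66 and the others 0.35, so short genes other than the members stood higher in FE. Values in the next paragraphs are CPM scaled by edgeR's trimmed mean of M-values (TMM).

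**Figure D2:**
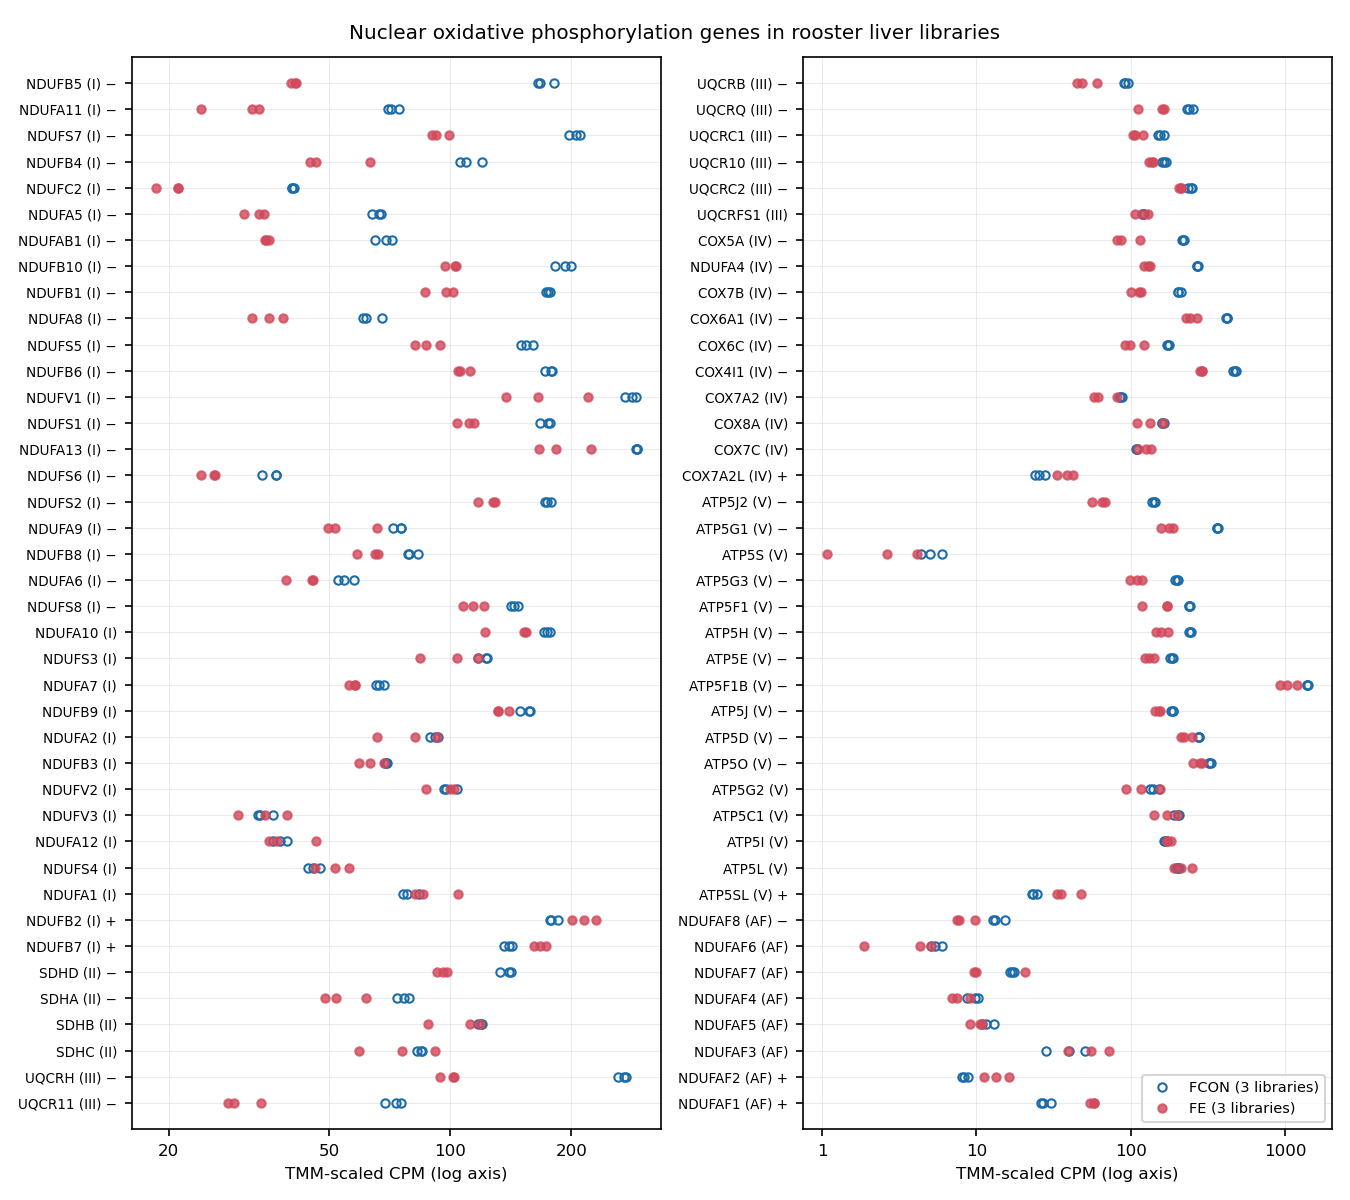
TMM-scaled CPM (log axis) of each of the 80 genes in the 3 FCON (open blue) and 3 FE (filled red) rooster liver libraries, ordered by complex and by change, with − and + after the names of genes called lower and higher and AF for assembly factors. The largest gap is that of NDUFB5, at 165 to 181 CPM in FCON and 40.2 to 41.3 CPM in FE.

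NDUFB5, an accessory subunit of the membrane arm of complex I, changed most of the 80 genes. It had 167, 181 and 165 CPM in the FCON livers and 41.3, 41.1 and 40.2 CPM in the FE livers. The FE livers were thus far below every FCON liver and nearly equal to each other, a log2 change of −2.07 ± 0.08 (SE, adjusted p = 1.57e-05). The gene lies on chromosome 9, from 17584886 to 17588422 on the minus strand in the deposited table, whose genome build is not given in the sources used here. NDUFS7, a core subunit with an iron-sulphur cluster next to the ubiquinone site, had 197, 210.0 and 206 CPM in FCON and 92.0, 90.0 and 99.1 CPM in FE. Its change was −1.12 ± 0.08 (adjusted p = 0.000104). NDUFB10, another membrane arm subunit, fell by 0.92 ± 0.08 on the log2 scale (adjusted p = 2e-04), from 200, 183 and 193 CPM to 97.2, 103 and 103 CPM. For none of these genes did the groups overlap. NDUFS1, the largest iron-sulphur subunit, had 175, 167 and 177 CPM in FCON and 111, 115 and 104 CPM in FE (−0.65 ± 0.08, adjusted p = 0.000899). NDUFV1, which binds the flavin that accepts electrons from NADH, had 290, 283 and 272 CPM against 220, 138 and 165 CPM (−0.69 ± 0.17, adjusted p = 0.0156), and without rooster FE replicate 3 its adjusted p was 0.0644. Only 2 complex I subunits were called higher, NDUFB7 (0.26 ± 0.07, adjusted p = 0.025) and NDUFB2 (0.26 ± 0.08, adjusted p = 0.0396).

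In complex II, succinate dehydrogenase, which also works in the citric acid cycle, the flavoprotein SDHA and the membrane anchor SDHD fell. SDHD had 140, 142 and 133 CPM in FCON and 98.4, 96.0 and 92.8 CPM in FE (−0.53 ± 0.08, adjusted p = 0.00198). SDHA had 77.0, 73.9 and 79.1 CPM against 52.0, 62.0 and 48.8 CPM (−0.50 ± 0.11, adjusted p = 0.0128). The iron-sulphur subunit SDHB, at 120, 119 and 117 CPM against 88.1, 112 and 119 CPM, had overlapping groups and was not called (−0.16 ± 0.12, adjusted p = 0.332).

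Complex III had the highest share of called genes, 7 of 8. UQCRH is by its symbol the acidic hinge protein at the cytochrome c docking site. It had 271, 273 and 261 CPM in FCON and 94.2, 102 and 102 CPM in FE. This is a change of −1.43 ± 0.07 (adjusted p = 3.39e-05), the largest after NDUFB5 among the genes called. UQCR11, one of the smallest subunits, had 75.7, 73.2 and 68.8 CPM against 34.0, 28.0 and 29.0 CPM (−1.26 ± 0.11, adjusted p = 0.000259). UQCRB, a subunit near the ubiquinone site, and UQCRC1, a core protein, changed by −0.86 ± 0.13 (adjusted p = 0.00214) and −0.50 ± 0.09 (adjusted p = 0.00478). The exception was UQCRFS1, the Rieske iron-sulphur protein that hands electrons to cytochrome c1. It had 120, 119 and 122 CPM in FCON and 130, 106 and 120 CPM in FE (−0.02 ± 0.09, 95% interval −0.21 to 0.17, adjusted p = 0.885).

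Complex IV had the lowest median of the complexes, −0.73. COX5A, an early-assembled nuclear subunit, had 219, 220 and 216 CPM in FCON and 116, 86.9 and 81.7 CPM in FE (−1.20 ± 0.14, adjusted p = 0.000789). NDUFA4 had 273, 268 and 270 CPM against 129, 133 and 122 CPM (−1.08 ± 0.07, adjusted p = 8.7e-05). COX4I1, the largest nuclear subunit, had 479, 475 and 459 CPM against 291, 290 and 280 CPM (−0.72 ± 0.06, adjusted p = 0.000264). In all 3 the groups were well apart. COX7B and COX6A1 fell as well, by 0.91 ± 0.08 (adjusted p = 0.000313) and 0.77 ± 0.08 (adjusted p = 0.000583) on the log2 scale. Of the COX7A paralogs, only COX7A2L was called. COX7A2 had 87.4, 84.6 and 85.1 CPM against 81.0, 57.4 and 61.7 CPM and was not called (−0.36 ± 0.14, adjusted p = 0.0772). COX7A2L, which joins complexes III and IV into supercomplexes in mammals, had 28.0, 25.6 and 24.1 CPM against 33.2, 42.2 and 38.9 CPM and was higher (0.56 ± 0.13, adjusted p = 0.0139).

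In complex V the 3 genes ATP5G1, ATP5G2 and ATP5G3, which in mammals encode the same mature c subunit of the rotating ring, were not all called. ATP5G1 had 370, 364 and 361 CPM in FCON and 188, 177 and 158 CPM in FE (−1.07 ± 0.08, adjusted p = 0.000169). ATP5G3 had 200.1, 201 and 194 CPM against 109.9, 118 and 99.6 CPM (−0.86 ± 0.09, adjusted p = 0.000438). ATP5G2 had 139, 152 and 134 CPM against 155, 92.8 and 116 CPM, with overlapping groups (−0.23 ± 0.18, adjusted p = 0.36). ATP5J2, the f subunit of the membrane part, fell by 1.15 ± 0.10 on the log2 scale (adjusted p = 0.000233). Of the catalytic head, ATP5F1B had 1407, 1396 and 1393 CPM against 1192, 922 and 1030 CPM (−0.42 ± 0.10, adjusted p = 0.0158, and 0.068 without rooster FE replicate 3). ATP5C1, the gamma subunit of the central stalk, was not called (−0.23 ± 0.13, adjusted p = 0.204).

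The genes called higher in FE were the assembly factors NDUFAF1 and NDUFAF2, then ATP5SL, COX7A2L, NDUFB7 and NDUFB2. NDUFAF1, which acts with ECSIT and ACAD9 in building the membrane arm of complex I in mammals, had 26.2, 30.3 and 27.1 CPM in FCON and 54.6, 57.9 and 58.1 CPM in FE. All FE livers were above all FCON livers, a change of 1.03 ± 0.10 (adjusted p = 0.000428). ATP5SL had 23.4, 22.9 and 24.8 CPM against 47.8, 35.6 and 33.2 CPM (0.71 ± 0.16, adjusted p = 0.0116). NDUFAF2 had 8.13, 8.29 and 8.79 CPM against 13.4, 11.2 and 16.3 CPM (0.70 ± 0.19, adjusted p = 0.027), and NDUFAF8 was lower (−0.72 ± 0.19, adjusted p = 0.0221). Of the 6 genes called higher only NDUFAF1 kept its call in every other count-based fit. Of the 47 called lower, only the 21 named ones were followed through these fits, and 18 kept their call. The named ones were taken mostly by smallest p within a complex, so the counts for higher and lower genes cannot be compared. The 4 genes on chromosome Z, NDUFAF2, NDUFS4, COX7C and ATP5I, all had positive values, with a median of 0.18, against a median of −0.48 over the 76 others. NDUFS4, COX7C and ATP5I were not called (0.16, 0.19 and 0.06, with adjusted p = 0.266, 0.155 and 0.513). The FCON libraries are those with 1015 to 1117 CPM of chromosome W counts, whose part in these values was not tested. Other genes of chromosome Z were not compared here. Directions in this comparison rest on the scaling: on FPKM relative to whole libraries, ribosomal RNA included, the median over all genes is −0.76 (limma on log2(FPKM + 1)), 75 of the 80 genes are called lower and none higher. Over all genes that test calls 6153, 4.84% of them higher. Rescaled without ribosomal RNA, the same test calls 39 lower and 4 higher, with a median of −0.038 over all genes. On the scale of whole libraries NDUFAF1 keeps a positive value, and the other 5 genes called higher, as well as NDUFS4, COX7C and ATP5I, turn negative.

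Genes around the chain were read from lists. In rooster liver 4 of 35 further assembly factors were higher and 6 lower, and in the citric acid cycle 4 of 13 genes were higher and 4 lower, where 20.4% of all genes were higher and 21.1% lower. CS, the citrate synthase that opens the cycle, rose (1.16 ± 0.31, adjusted p = 0.0238). Of 8 genes for exchange across the mitochondrial membranes, 3 were lower and 1 higher. SLC25A6, an ADP/ATP carrier, had 818 ± 9.48 CPM in FCON and 436 ± 12.6 CPM in FE (−0.91 ± 0.06, adjusted p = 9.83e-05), and VDAC1, a channel of the outer membrane, was the one that rose (1.36 ± 0.13, adjusted p = 0.000326). ATPIF1, the inhibitor protein of the ATP synthase, fell by 1.13 ± 0.09 on the log2 scale (adjusted p = 0.000195) and is 1 of 3 of 5 ATP synthase and complex IV components with other symbols that were lower. Of 10 regulators, 1 was higher, 2 were lower and the others were not called. PPARGC1B, a coactivator of genes of mitochondrial function, had 14.3 ± 1.30 CPM in FCON and 4.89 ± 0.848 CPM in FE (−1.55 ± 0.20, adjusted p = 0.00135). GABPB1, a subunit of the factor known in mammals as NRF-2, fell too (−0.60 ± 0.15, adjusted p = 0.017). ESRRG, an estrogen-related receptor, rose (2.46 ± 0.38, adjusted p = 0.00249) from 1.24 ± 0.272 to 6.86 ± 2.36 CPM, and TFAM, which packs mitochondrial DNA, was not called (−0.27 ± 0.12, adjusted p = 0.116).

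Between the fathers' diets the chicks' livers gave 0 members called, where 0% of 9700 genes tested were called. At an unadjusted p below 0.05 there were 679 genes, 2 of them members, and DESeq2 called 38 genes, none of them members. Of the 80 genes 66 had negative values, with a median of −0.20 against −0.0067 over all genes tested. Among genes of under 600 bases, however, the 22 members had a median of −0.11 and the others −0.30. In the next longer class of genes the medians were −0.21 and −0.22. Members lay below other genes of like length only among still longer genes (−0.21 against −0.14, and −0.21 against 0.08 in the longest class). The groups did not overlap in 8 of the 80, against 14.1% of all genes. NDUFB5, for which rooster livers differed most, had 229, 271 and 220 CPM in offspring FCON and 257, 262 and 219 CPM in offspring FE (0.04 ± 0.26, 95% interval −0.47 to 0.54, adjusted p = 0.982). The smallest p belonged to NDUFB2, at 637, 793 and 511 CPM against 408, 346 and 431 CPM (−0.71 ± 0.28, adjusted p = 0.701). NDUFB7 was the other gene below 0.05 unadjusted, at 359, 575 and 286 CPM against 199, 186 and 313 CPM (−0.81 ± 0.36, adjusted p = 0.701), with groups that overlap. Without both pools numbered 2, again no member was called. Nuclear ribosomal RNA took 16.4 to 29.1% of the counts in offspring FCON and 4.70 to 20.4% in offspring FE. Its part in these values was not tested.

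Sperm gave the same count. Of 79 genes tested none was called, as was none of 8811 genes overall (0%), with 296 genes at an unadjusted p below 0.05. NDUFAF6 was not tested there, because its FPKM stayed below 1. The median was 0.13 over the 79 genes and −0.088 over all genes, and its sign rests on single libraries: it was −0.028 without sperm FCON replicate 1, −0.025 without sperm FE replicate 2 and 0.33 without sperm FCON replicate 3. Of the 79 genes 6 had groups that did not overlap, against 10.3% of all genes. NDUFAF1 alone among members had an unadjusted p below 0.05, with 29.0, 17.4 and 31.1 CPM in FCON and 12.98, 6.85 and 15.7 CPM in FE (−1.12 ± 0.45, adjusted p = 0.902). NDUFB5, at 50.4, 54.3 and 52.2 CPM against 48.6, 65.5 and 53.8 CPM, had a 95% interval of −0.55 to 0.75. COX4I1, at 113, 218 and 194 CPM against 190.4, 217 and 215 CPM, had one of −0.52 to 1.02. The change of COX4I1 in rooster liver lies outside it, though these approximate intervals are narrower than the test's own. For other genes called lower in rooster liver this did not hold. The sperm intervals of UQCRB (−1.26 to 0.44) and ATP5G3 (−0.97 to 0.67) include their rooster liver changes given above. Same-numbered sperm libraries of the diets varied together, and with the number as a block there were again 0 members called.

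**Figure D3:**
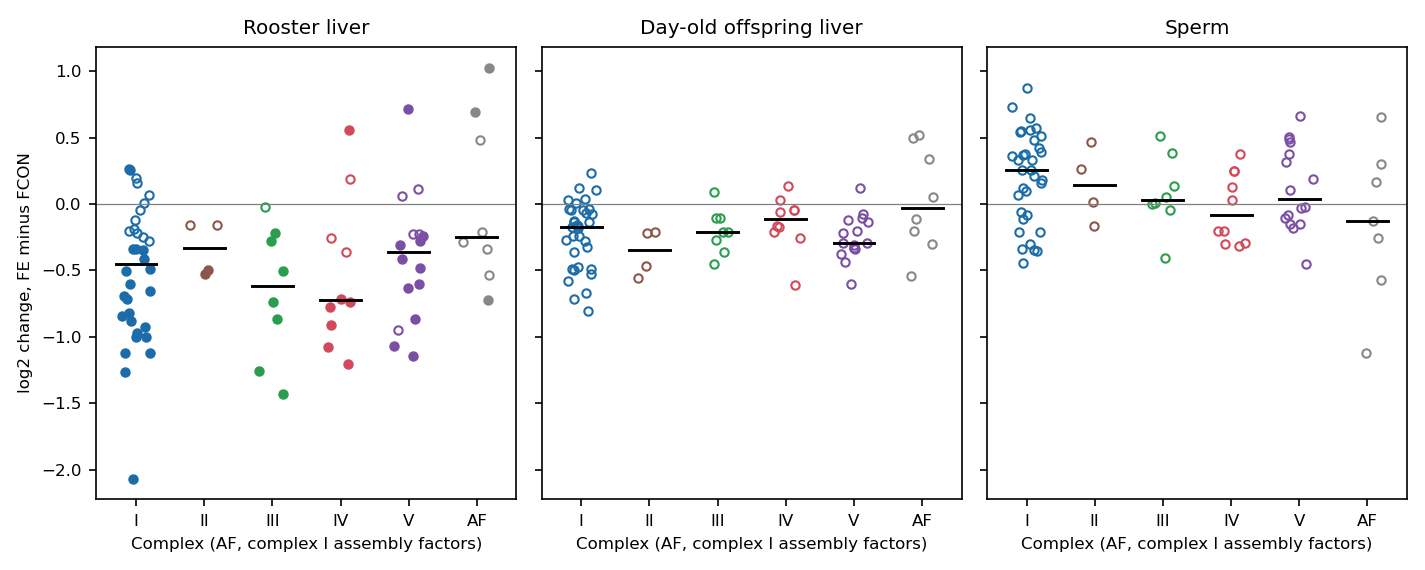
log2 change, FE minus FCON (y axis), of each gene by complex (x axis) in rooster liver, offspring liver and sperm, with filled points for genes called, open points for the rest and black bars at the medians. Filled points occur in rooster liver only, mostly below 0, and the largest is NDUFB5 at −2.07.

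The difference between the rooster and the offspring diet effects was tested over the 12 liver libraries. It was called for 14 of the 80 genes, 11 with a lower value in roosters and 3 with a higher one, where 18.7% of 11002 genes were called, 10.2% lower and 8.44% higher. The share of members called is thus near that of all genes. Of the 11 lower, 6 belong to complex I, 2 to complex III, 2 to complex IV and 1 to complex V. NDUFB5 differed most (−2.12 ± 0.23, adjusted p = 0.000287), followed by NDUFA5 of the complex I peripheral arm (−1.25 ± 0.30, adjusted p = 0.0136). UQCRH (−1.17 ± 0.26, adjusted p = 0.0101) and NDUFA4 (−1.05 ± 0.22, adjusted p = 0.00821) were also among them. The higher ones were ATP5SL, NDUFAF1 and NDUFB2, and none of these 3 kept its call in every count-based fit. Of the 11 lower ones, the 8 with the smallest p within their complex were followed, and 7 kept theirs. The counts for higher and lower genes therefore cannot be compared. This comparison uses the same rooster libraries as the one before it.

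Day-old livers had higher levels of the nuclear genes than rooster livers under both diets, and no member was called lower. On the FCON diet 49 of the 80 genes were called higher, where 15.6% of 10339 genes were, and on the FE diet 48 of 80, where 14.7% of 9847 genes were (29.4% and 27.4% in either direction). The medians were 0.71 and 0.90, against −0.0030 and 0.040 over all genes tested. The FCON and FE comparisons share no library, and 38 genes were called higher in both, which is 77.6% of the FCON calls and 79.2% of the FE calls, while 74 of the 80 had positive values in both. By complex, FCON calls comprised 20 of 34 genes of complex I, 1 of 4 of complex II, 8 of 8 of complex III, 7 of 10 of complex IV, 12 of 16 of complex V and 1 of 8 assembly factors. The FE calls comprised 22, 2, 6, 8, 9 and 1 in the same order. Day-old and rooster libraries did not overlap in 62 genes on FCON and in 64 on FE, against 53.4% and 47.3% of all genes tested.

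Each comparison by age has its own scaling, so rooster values differ slightly from those above. UQCRQ, a small complex III subunit that binds ubiquinone, had 273, 298 and 285 CPM in rooster FCON and 647, 541 and 496 CPM in offspring FCON (0.98 ± 0.17, adjusted p = 0.0079). On FE it had 161, 109.6 and 157 CPM in roosters and 604, 438 and 436 CPM in chicks (1.79 ± 0.25, adjusted p = 0.00202). Every chick pool stood above every rooster in both diets. NDUFS5, a complex I subunit of the intermembrane space side, likewise rose from 182, 189 and 179 CPM to 386, 542 and 450.0 CPM on FCON (1.32 ± 0.18, adjusted p = 0.00391). COX4I1 rose from 567, 560.2 and 546 CPM to 851, 818 and 813 CPM on FCON (0.57 ± 0.14, adjusted p = 0.0246). On FE its change was 1.05 ± 0.19 (adjusted p = 0.00584). COX7C on chromosome Z was higher in chicks on both diets (1.24 ± 0.19, adjusted p = 0.0056, and 0.98 ± 0.29, adjusted p = 0.0382), as was ATP5I (1.20 ± 0.27, adjusted p = 0.019, and 1.04 ± 0.29, adjusted p = 0.0299). ATP5F1B, although the most abundant in roosters, was called on neither diet (0.42 ± 0.19, adjusted p = 0.146, and 0.44 ± 0.24, adjusted p = 0.194).

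The order of the genes at the top was not the same on both diets. On FCON the largest changes were those of ATP5SL (1.72 ± 0.18, adjusted p = 0.00211), the assembly factor NDUFAF3 (1.72 ± 0.27, adjusted p = 0.00634) and NDUFB2 (1.64 ± 0.20, adjusted p = 0.00296), and NDUFB5 was not called (0.28 ± 0.16, adjusted p = 0.223). On FE it was NDUFB5 that led, with 40.6, 40.5 and 39.5 CPM in roosters and 223, 222 and 176 CPM in chicks (2.36 ± 0.21, adjusted p = 0.000421). UQCRH followed (2.09 ± 0.20, adjusted p = 0.000516), then NDUFA5 (2.09 ± 0.25, adjusted p = 0.00107), UQCR11 (2.08 ± 0.21, adjusted p = 0.000631) and COX5A (1.90 ± 0.24, adjusted p = 0.00119). NDUFA4 had 323, 316 and 321 CPM in FCON roosters and 288, 352 and 342 CPM in FCON chicks (0.03 ± 0.15, adjusted p = 0.885), against a change of 1.05 ± 0.20 (adjusted p = 0.00669) on FE. The difference between the age effects of the diets is the same contrast as the difference between diet effects given above, in which NDUFB5, NDUFA5, UQCRH, UQCR11, COX5A and NDUFA4 were called.

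**Figure D4:**
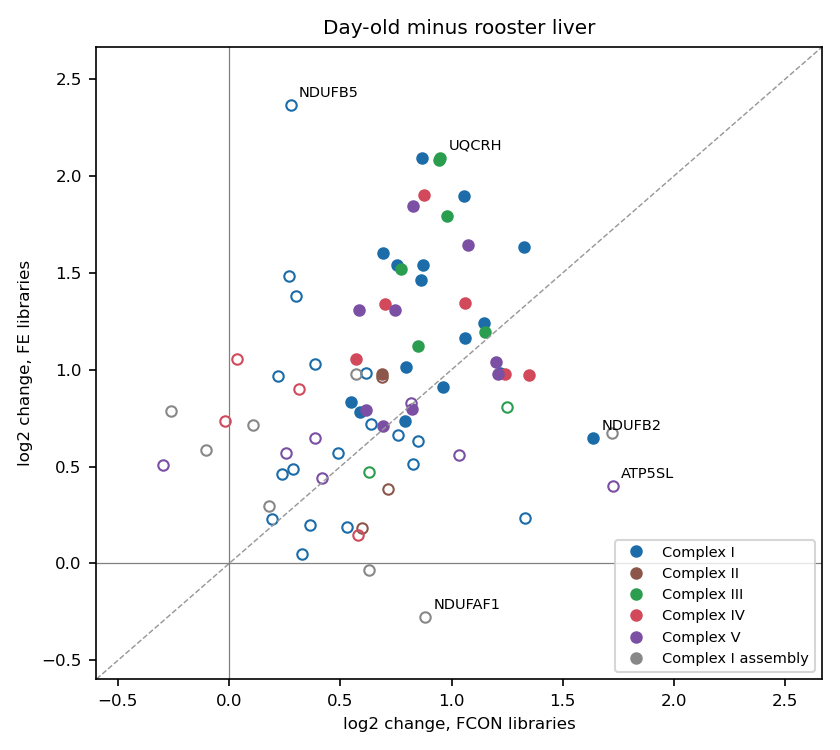
log2 change of day-old against rooster liver in FCON (x axis) and FE libraries (y axis) for the 80 genes, coloured by complex, with filled points for genes called in both diets and a dashed line of equality. NDUFB5 stands far above the line (0.28 and 2.36), and ATP5SL, NDUFB2 and NDUFAF1 stand below it.

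Calls by age depended on the rooster libraries. On FCON 6 members were called without any 1 rooster FCON library, while calls over all genes fell from 3037 to between 783 and 810. Of the 23 named genes 6 kept their call in every count-based fit: ATP5SL, COX7C, NDUFAF3, NDUFB2, NDUFS5 and NDUFV1. On FE 30 members were called without rooster FE replicate 3, while calls over all genes fell from 2700 to 1485. Of the 26 genes named on FE 18 kept their call. Among genes of under 600 bases, others than members had a median of 0.76 on FCON, near the 0.81 of the members, and 0.08 on FE, against 1.03 for the members. In the longer classes, in order of length, members had medians of 0.66, 0.77 and 0.72 on FCON, against 0.43, 0.26 and −0.13 for others. On FE these were 1.005, 0.72 and 0.73 against 0.23, 0.17 and −0.02. Hepatocyte markers were called lower for 3 of 12 and higher for 1 on FCON, and higher for 5 and lower for none on FE, and of 6 macrophage markers 1 and 6 were lower. The rooster FCON libraries are those with 1015 to 1117 CPM of chromosome W counts, where the FCON chick pools had 8.09, 963 and 4.14 CPM, which bears on the Z-linked COX7C and ATP5I too. Nuclear ribosomal RNA took 3.02 to 8.75% of the counts in FCON roosters and 16.4 to 29.1% in FCON chicks. On FE it took 32.8 to 60.5% in roosters and 4.70 to 20.4% in chicks. Counts without ribosomal RNA genes gave 50 and 48 members higher on FCON and FE. By limma on log2(FPKM + 1) of whole libraries, 12 were higher and 4 lower on FCON, and 77 higher on FE. The part of chromosome W counts, of ribosomal RNA, of cell composition and of short transcripts in the age differences was not tested. Against backgrounds of 15.6% higher on FCON and 14.7% on FE, 8 and 5 of 13 genes of the citric acid cycle were higher, with 0 and 1 lower. Of 8 exchange genes 6 and 5 were higher, of 36 further assembly factors 13 and 9, and of 5 components with other symbols 3 and 5, with none lower. Of the regulators, 2 of 10 were higher and 1 lower on FCON, and 4 of 9 were higher on FE. TFAM was higher in chicks on both diets (0.70 ± 0.18, adjusted p = 0.0275, and 1.18 ± 0.28, adjusted p = 0.0158).

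Between sperm and rooster liver, most calls on FCON were lower in sperm, and on FE the calls went both ways. Liver and sperm libraries of the same diet and number carry the same rooster label, and the main tests did not pair them. On FCON 40 of the 80 genes were called lower in sperm and 3 higher, where 49.6% of 10765 genes were called, 25.5% lower and 24.1% higher. On FE 15 of 79 were called lower and 12 higher, where 52.8% of 9374 genes were called, 22.9% lower and 29.9% higher. The medians were −0.80 and −0.042, against −0.085 and 0.096 over all genes. Sperm and liver did not overlap in 57 genes on FCON and in 46 on FE, against 66.8% and 66.4% of all genes tested. In both comparisons 13 genes were called lower, 1 higher (NDUFAF4), and 1 lower on FCON and higher on FE (NDUFB5). Calls with the same direction were 32.6% of the FCON calls and 51.9% of the FE calls. Of the named genes called on FCON, 15 of 20 lower and 0 of 3 higher kept their call in every count-based fit. NDUFAF4 thus did not keep its call on FCON. On FE 9 of 12 lower and 5 of 9 higher kept theirs, NDUFAF4 among the 5. Named genes were taken mostly by smallest p within a complex, so these counts cannot be compared between directions. Whether the tissue effect differs between the diets was not tested. Chromosome W counts were 9.74 to 22.37 CPM in FCON sperm, against 1015 to 1117 CPM in FCON liver. On FE they were 5.02 to 32.55 CPM in sperm and 0 to 2.07 CPM in liver. Nuclear ribosomal RNA averaged 10.7% in FCON sperm and 19.5% in FE sperm, against 6.43% and 45.9% in liver. The part of either in the tissue differences was not tested. On the scale of the test, the hepatocyte list summed to 890 to 1737 CPM in FCON sperm against 86670 to 87630 CPM in liver, and the endothelial list to 0 to 3.00 against 106 to 108 CPM. Macrophage, erythroid and stellate cell lists were also lower in sperm on both diets. The cholangiocyte list was not: it summed to 306 to 671 CPM in FCON sperm against 124 to 134 CPM in liver, though in plain CPM the groups overlapped (139 to 520 against 177 to 199). The B and plasma cell list summed to 31.4 to 104 against 14.5 to 17.2 CPM, while the T and NK list overlapped (66.2 to 302 against 96.3 to 99.5 CPM). On FE the cholangiocyte list was again higher in sperm (165 to 361 against 36.5 to 41.3 CPM). Of the spermatid and sperm markers tested, 8 of 9 were higher on FCON and 11 of 11 on FE. Of the 14 listed, 4 averaged an FPKM of 1 or more in FCON liver and 12 in FCON sperm. On FE these were 1 and 11. Most of these markers could thus pass the filter only through sperm, which largely set their direction in advance.

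On FCON, calls below liver covered 16 of 34 genes of complex I, 3 of 4 of complex II, 6 of 8 of complex III, 2 of 10 of complex IV, 12 of 16 of complex V and 1 assembly factor. ATP5G1 fell furthest, from 359, 350.3 and 348 CPM in liver to 39.2, 53.0 and 96.3 CPM in sperm (−2.49 ± 0.38, adjusted p = 0.00274). UQCRC2, a core protein of complex III, had 243, 236 and 228 CPM against 32.1, 55.3 and 69.9 CPM (−2.17 ± 0.32, adjusted p = 0.00261). ATP5F1B had 1363, 1345 and 1345 CPM against 254, 232 and 444 CPM (−2.12 ± 0.33, adjusted p = 0.00295). All sperm libraries lay below all livers for these 3 genes. On FE the same genes were again lower, with −1.08 ± 0.26 (adjusted p = 0.00988), −1.40 ± 0.23 (adjusted p = 0.00149) and −1.16 ± 0.25 (adjusted p = 0.00596). NDUFV2, a subunit of the NADH-oxidising module, had 52.7, 63.1 and 61.1 CPM in FE liver and 14.3, 13.5 and 17.1 CPM in FE sperm (−1.98 ± 0.23, adjusted p = 0.00034), and on FCON its change was −1.85 ± 0.26 (adjusted p = 0.00217). In complex IV, COX4I1 was called on neither diet (−0.75 ± 0.31, adjusted p = 0.0909, and 0.38 ± 0.20, adjusted p = 0.147). COX6C was higher in sperm on FE, with 56.0, 61.2 and 74.3 CPM in liver and 137, 149 and 235 CPM in sperm (1.44 ± 0.28, adjusted p = 0.00368).

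Assembly factors were among the genes higher in sperm. NDUFAF4 had 9.46, 9.85 and 8.39 CPM in FCON liver and 14.2, 28.2 and 17.1 CPM in FCON sperm (1.11 ± 0.32, adjusted p = 0.0282). On FE it had 5.54, 4.29 and 4.60 CPM against 16.1, 19.6 and 11.8 CPM (1.72 ± 0.33, adjusted p = 0.00336). NDUFAF8 was higher on FE (1.87 ± 0.34, adjusted p = 0.00258) and not called on FCON (0.32 ± 0.24, adjusted p = 0.297). NDUFAF1 was lower on FE (−1.40 ± 0.35, adjusted p = 0.0104) and not called on FCON (0.56 ± 0.27, adjusted p = 0.13). NDUFB5 was lower in sperm than in liver on FCON, where liver had 162, 175 and 159 CPM and sperm 74.5, 85.1 and 82.1 CPM (−1.04 ± 0.18, adjusted p = 0.00484). It was higher on FE, where liver had 25.0, 25.4 and 24.6 CPM and sperm 54.4, 70.0 and 60.0 CPM (1.30 ± 0.22, adjusted p = 0.00165). The liver libraries are those in which this gene differed between the diets, while its sperm values overlapped between them. The split on FE depends on single sperm libraries and on scaling. Without sperm FE replicate 3 it was 14 lower and 17 higher, with a median of 0.12, and without replicate 1 it was 10 lower and 11 higher, with a median of 0.19. With size factors by relative log expression it was 17 lower and 8 higher, without ribosomal RNA genes 19 lower and 8 higher, and by limma on log2(FPKM + 1) rescaled without ribosomal RNA 52 lower and none higher, with a median of −0.86 over all genes.

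**Figure D5:**
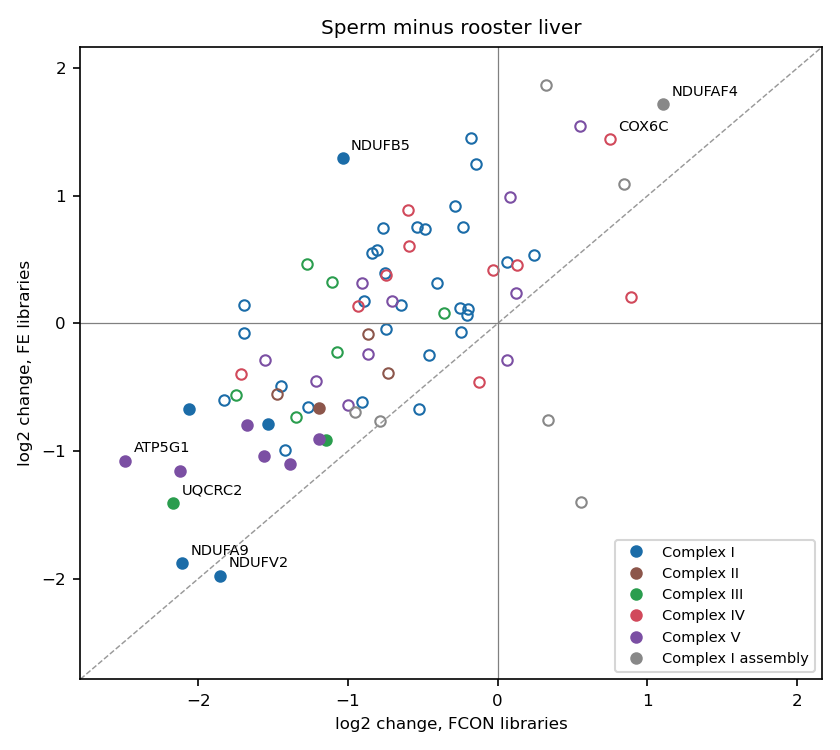
log2 change of sperm against rooster liver in FCON (x axis) and FE libraries (y axis) for the genes tested in both, coloured by complex, with filled points for genes called in both diets and a dashed line of equality. Most points lie above the line, and NDUFB5 is at −1.04 on FCON and 1.30 on FE.

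For some of the genes named, reads cannot be assigned without doubt, since no strand marking is stated. In the deposited coordinates 18 of the 80 overlap a gene on the opposite strand, among them NDUFB2 (BRAF), NDUFAF3 (DALRD3), NDUFB10 (RPL3L), SDHA (CCDC127) and SDHD (IL18). A further 5 overlap a gene on the same strand, among them COX5A (FAM219B), NDUFS1 (INO80D), NDUFA5 (IQUB) and ATP5G2 (ATF7). NDUFB5, UQCRH, NDUFA4, COX4I1, ATP5G1 and NDUFAF1 overlap none.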

How the data were processed

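Per the labels' protocols, oligo-dT selected the poly(A) RNA, random hexamers primed the cDNA and both ends were read, with no strand marking stated. Tools listed in the submitters' processing notes are HISAT2, StringTie and cutadapt. The sources used here give neither their settings, nor the genome build, nor how reads that match several genes were handled. The table deposited by the authors holds whole-number estimated counts and FPKM, both per gene and library. FPKM is relative to the whole library, so libraries rich in ribosomal RNA have lower FPKM throughout. A RefSeq table of GRCg7b served for symbols (79 of 80 members matched) and chromosome names only. The match was by gene ID, and UQCRH, ATP5F1 and ATP5F1B carry the symbols UQCRHL, ATP5PB and ATP5B there.

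From the counts, edgeR 4.0.16 in R 4.3.3 fitted the libraries of each of 8 comparisons with TMM scaling. A gene was tested when 3 or more libraries of its fit had an FPKM of 1 or more, and called at an adjusted p below 0.05 over all genes tested. The 95% intervals are a normal approximation from the SE. With so few libraries they are narrower than intervals from the test itself would be. Genes named are, per complex and comparison, the 3 called with the smallest p in each direction (2 where none is called), a fixed core set, isoform pairs, the highest and lowest by FPKM, and those on chromosome Z. NDUFA11, NDUFAB1 and NDUFS7 in the difference of diet effects, and the genes named from other lists, were chosen after their values were seen. Members, lists and tests were chosen with earlier results of these data known.

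Alternatives were size factors by relative log expression, DESeq2 1.42.0, no filter, limma 3.58.1 on log2(FPKM + 1) and log2(FPKM + 0.1), counts without ribosomal RNA genes, the replicate number as a block, leaving out each library, and leaving out both offspring pools numbered 2. Others were added after the data were seen: the counts without ribosomal RNA genes and without the most abundant sperm gene, and limma on FPKM rescaled without ribosomal RNA. Only in sperm did same-numbered libraries of both diets deviate together (r = 0.198, 0.233 and 0.298 across genes, all above 0.1). No 2 replicates of the same group agreed within counting noise, and rooster FCON replicates differed beyond it in 45.3 to 46.9% of genes. Replicates are separate birds or pools as labelled, so p measures the spread between these few libraries. Each fit estimated a common spread per gene for all its groups. The median coefficient of variation, however, ran from 2.86% in rooster FCON to 30.6% in sperm FCON. Where rooster FCON was compared with chicks or sperm, p thus does not measure the spread of the more variable group alone. The fits were also run on simulated data drawn with equal spread in all groups, unlike these data, so that run does not show how they perform here. Promoter motifs were not run. Figures were drawn with matplotlib 3.10.9 in Python 3.11.15.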

Additional observations from a re-analysis of the deposited data

Results flagged for a closer look

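The diet effect in rooster liver minus that in offspring liver, tested as an interaction over 12 libraries with edgeR, differed from 0 for 14 of the 80 genes. This is 17.5% of the members, near the 18.7% of all 11002 genes tested (10.2% lower and 8.44% higher). Lower in roosters were NDUFB5 (−2.12, adjusted p = 0.000287), NDUFA5 (−1.25, adjusted p = 0.0136), NDUFA11 (−1.24, adjusted p = 0.0328), UQCRH (−1.17, adjusted p = 0.0101), UQCR11 (−1.17, adjusted p = 0.0141) and COX5A (−1.05, adjusted p = 0.0168). The others below 0 were ATP5J2 (−1.05, adjusted p = 0.0241), NDUFA4 (−1.05, adjusted p = 0.00821), NDUFC2 (−0.94, adjusted p = 0.0148), NDUFAB1 (−0.81, adjusted p = 0.0491) and NDUFS7 (−0.78, adjusted p = 0.0274). Above 0 were NDUFB2 (0.96, adjusted p = 0.026), NDUFAF1 (1.13, adjusted p = 0.0395) and ATP5SL (1.30, adjusted p = 0.0377). For NDUFB2 the effect was 0.26 in roosters and −0.71, not called, in chicks. The libraries labelled rooster FCON carry the chromosome W counts and the rooster FE libraries the most ribosomal RNA, and the part of either in these differences was not tested.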

How the results depend on the processing

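Leaving out 1 library gave 41 to 57 members called in rooster liver (53 in all libraries), 0 in offspring liver and 0 in sperm, 7 to 17 in the difference of diet effects (14), 6 to 55 and 30 to 52 by age on FCON (49) and FE (48), and 29 to 47 and 21 to 33 for sperm against liver on FCON (43) and FE (27). Over all genes the calls in these fits were 2560 to 5161 in rooster liver, 0 to 2 in offspring liver and 0 to 182 in sperm. They were 1244 to 2192 in the difference, and 783 to 4087 and 1485 to 2444 by age. For sperm against liver they were 2742 to 5802 and 3378 to 4406. The difference of diet effects had 7 without any 1 rooster FCON library, 9 without any 1 rooster FE library and 9 without both pools numbered 2. Age on FCON had 6 without any 1 rooster FCON library (783 to 810 over all genes). Age on FE had 30 without rooster FE replicate 3 (1485 over all genes). With the replicate number as a block 40 members were called in rooster liver, 0 in offspring liver, 0 in sperm and 10 in the difference of diet effects. By age there were 24 and 41 on FCON and FE, and for sperm against liver 28 and 21. Liver and sperm libraries of the same diet and number carry the same rooster label, and whether they are the same birds was not tested. Otherwise the libraries compared share only a number, though in sperm same-numbered ones deviated together. DESeq2 called 55, 0, 0, 20, 54, 52, 48 and 27 in the same order. Over all genes the block fits called 3442, 0, 0, 1716, 2026, 2276, 4280 and 4429. DESeq2 called 4963, 38, 0, 2819, 4036, 3220, 5979 and 5275 genes in all.

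limma on log2(FPKM + 1), which keeps ribosomal RNA in the total, shifted the median of all genes to −0.76 in rooster liver, −1.06 in the difference, −0.41 and 0.72 by age on FCON and FE, and −0.87 and −0.24 for sperm against liver. It called 75 members in rooster liver, all lower, 68 in the difference, all lower, 16 (12 higher, 4 lower) and 77 by age, and 13 (1 higher, 12 lower) for sperm on FE. Over all genes the calls were 6153 in rooster liver (4.84% of them higher) and 5757 in the difference (3.44%). They were 4075 and 4455 by age (16% and 90.8%) and 3625 for sperm on FE (45.4%). With a pseudocount of 0.1 there were 63 members in the difference, 7 by age on FCON (5 higher, 2 lower) and 4 for sperm on FE. Calls over all genes were then 5439, 3658 and 3508, with 3.16%, 14.9% and 44.1% of them higher. Rescaled without ribosomal RNA, 52 members were called for sperm on FE, all lower, with a median of −0.86 over all genes. There 6162 genes were called in all, 24.9% of them higher.

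Among named genes called in the reported or the alternative fit, signs turned under limma and in no count-based fit. The median over members turned in offspring liver (0.23 and 0.23 under limma on whole libraries) and in sperm (−0.034 and −0.033), besides the fits without 1 sperm library. With a pseudocount of 1 and then 0.1, rooster values were −0.904 and −0.907 for ATP5I, −0.263 and −0.273 for ATP5SL, −0.396 and −0.415 for COX7A2L, −0.269 and −0.291 for NDUFAF2, −0.680 and −0.712 for NDUFB2, −0.704 and −0.707 for NDUFB7, and with 1 alone −0.782 for COX7C and −0.758 for NDUFS4. In the difference they were −1.21 and −1.22 for ATP5G2, −0.0121 and −0.0178 for ATP5SL, −0.279 and −0.290 for NDUFAF1, −0.401 and −0.429 for NDUFB2, and with 1 alone −1.23 for ATP5I and −1.05 for COX8A. By age on FCON NDUFA4 had −0.454. For sperm on FCON COX7A2L had −0.172, −0.186 and, rescaled, −0.114, NDUFAF7 −0.159, −0.223 and −0.115, and NDUFAF4 −0.00276 with 0.1. Rescaled values for sperm on FE were −0.242 for ATP5D, −0.9996 for ATP5G2, −1.01 for COX5A, −0.920 for COX7A2L, −0.277 for NDUFA4, −0.236 for NDUFB10 and −0.384 for NDUFV1. The cause was not tested beyond the shift of all genes.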
